A study of Mus musculus with 6 samples.

Results

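Levels of 8 genes of the complement system and its surroundings were followed in RNA from sorted kidney endothelial cells (ECs), out of 55401 genes listed in the count table. They were Clu, Cd55, Cd59a, C3, C1ra, Serping1, Cd93 and Cr1l, picked by gene name with their levels in the 2 groups already known, so that the difference between the groups is given for them as a description. Calls made for them by the fit over all genes are named only as counts beside the share of all genes called, and no p is given. Only some of the 8 encode complement regulators in the strict sense. C3 and C1ra encode components of the cascade, Clu encodes an extracellular chaperone that also holds back the terminal complex, and Cd93 encodes an EC membrane lectin once described as a receptor for C1q.

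The 2 groups, of 3 male mice each, were compared, with 1 library per mouse. All 6 mice carried floxed Rbpj (Rbpjf/f) on both alleles and received tamoxifen, 5 injections of 1.5 mg at 8 weeks of age, and kidneys were taken 12 weeks after induction, at a labelled age of 21 weeks. The CTRL mice were Cre-negative littermates (Cre -/-), while the mice labelled RbpjDEC (Cre +/-, here RbpjΔEC) carried the Cdh5CreERT2 transgene, in which the Cdh5 promoter drives a tamoxifen-dependent Cre recombinase in ECs. The controls carry no Cre, so an effect of the Cre protein and an effect of losing Rbpj, through which Notch receptors regulate transcription, cannot be told apart in this design. The sort kept CD31+ CD45- cells, which takes ECs of arteries, capillaries, veins and glomeruli together.

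Complement is a cascade of plasma and tissue proteins. The C1r and C1s proteases of the classical pathway, the lectin pathway and the alternative pathway all converge on cleavage of C3, after which fragments coat the surface and a membrane attack complex can form. Cells in contact with plasma, ECs above all, carry brakes on this cascade: decay-accelerating factor (Cd55) and Crry (Cr1l) act on the C3 convertases, Cd59a blocks assembly of the membrane attack complex, and C1 inhibitor (Serping1) inactivates C1r and C1s. The kidney endothelium is a recognised site of injury when this control fails.

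Counts assigned to genes totalled between 39649171 and 47726850 per library, and 3 counts, taken as the floor, corresponded to 0.0634 to 0.0749 CPM (counts scaled to a library size of 1e+06 with TMM factors). CTRL 1 stood apart, with 33764 genes detected where each of the other 5 libraries detected 25629 to 26785. The targeted gene Rbpj had 28.1, 29.7 and 29.8 CPM in CTRL 1 to 3 and 28.9, 26.1 and 29.6 CPM in RbpjΔEC 1 to 3. Counts over the whole gene, which also hold the exons that are not floxed, did not separate the groups (adjusted p = 0.793, edgeR's quasi-likelihood test). Hey1, a direct Notch target named after its values were seen, had 16.7, 19.9 and 22.6 CPM in CTRL and 11.5, 8.92 and 14.6 CPM in RbpjΔEC. The RbpjΔEC libraries all lay below the CTRL libraries, with a log2 fold change of -0.76 (standard error 0.176) that did not pass adjustment (edgeR, adjusted p = 0.0722). All 12 pan-endothelial markers were tested and together held between 21946 and 24068 CPM in CTRL and between 19905 and 20209 CPM in RbpjΔEC. Among them Kdr had 5994 CPM in CTRL and 4960 CPM in RbpjΔEC, Flt1 4713 and 3988, and Cdh5 1823 and 1594 CPM, on average. Pecam1 ranged from 2010 to 2324 CPM in CTRL and from 1889 to 2078 CPM in RbpjΔEC. By mean, 9 of the 12 were lower and 3 higher in RbpjΔEC. The largest rise was that of Egfl7 (965 and 1125 CPM), named after its values were seen. Of these 12 genes 0 were called by edgeR, where an unadjusted p under 0.05 was reached by 1 with a higher and 4 with lower levels, and 4 were called lower by DESeq2. An unadjusted edgeR p under 0.05 was reached by 8.88% of all tested genes with higher and by 8.62% with lower levels, and DESeq2 called 2.35% higher and 2.77% lower.

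The 8 genes differed widely in level in CTRL. Per kilobase of exon, Cd93 had the highest level at 140.0 ± 3.39 CPM per kb (SD, n = 3), which was 9.47 times that of Cd59a at 14.8 ± 1.53 CPM per kb (SD, n = 3). Cr1l followed with 9.21 ± 0.640 and Clu with 8.73 ± 0.408 CPM per kb (SD, n = 3 each), and the libraries of these neighbours overlapped. C1ra had 3.93 ± 0.422 and Serping1 1.49 ± 0.152 CPM per kb (SD, n = 3 each), each apart from the next gene in the order. Cd55 with 0.779 ± 0.154 and C3 with 0.455 ± 0.218 CPM per kb (SD, n = 3 each) closed the order, and their libraries overlapped. The exonic length covers every annotated exon of a gene, including those of retained-intron transcripts, which lowers the value per kb of a gene such as Cr1l with 10349 bp. The order of the means was the same in RbpjΔEC, where Serping1 with 0.709 CPM per kb came close to Cd55 with 0.687, and Clu with 4.22 CPM per kb stood clear of Cr1l with 8.78.

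**Figure D1:**
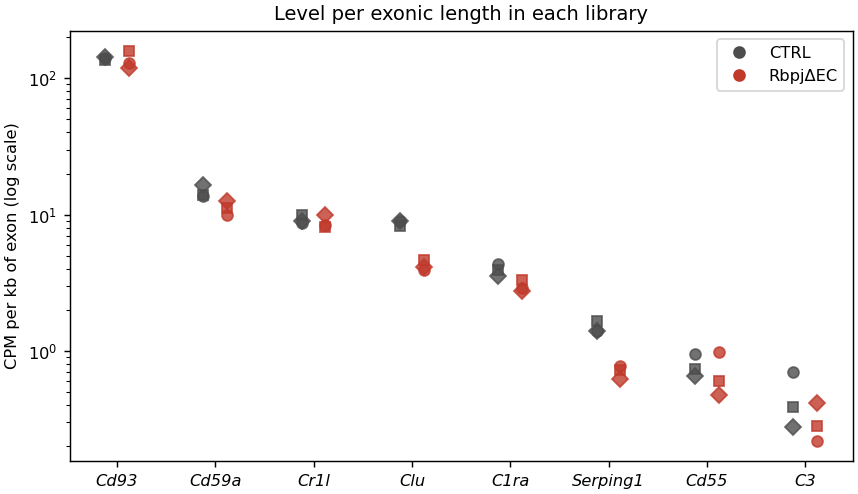
Level of each gene in CPM per kb of exon (log axis) in the 6 libraries, with CTRL in grey and RbpjΔEC in red, ordered by the CTRL mean. Cd93 sits near 140.0 CPM per kb, far above the other genes, while Clu and Serping1 show the widest gap between the groups.

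Of the 8 genes, all passed the low-count filter, and the mean of every one was lower in RbpjΔEC than in CTRL, with a median log2 fold change of -0.40 beside 0.01 over all 18438 tested genes. In 4 of the 8 (Clu, Serping1, C1ra and Cd59a) every RbpjΔEC library lay below every CTRL library, a pattern that 11.6% of all tested genes showed in this direction, 11.4% in the other and 23.0% in either. Clu alone was called at an adjusted p under 0.05 by edgeR, where 0.559% of all tested genes were called lower, 0.575% higher and 1.13% in either direction. Since the genes were chosen from this very comparison, nothing is read from these counts. Fewer cells of a given type in a sorted pool and less RNA per cell cannot be told apart in bulk libraries.

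RefSeq promoter windows of GRCm38.p6, from 250 bases before to 50 bases after the start, were found for 5 of the 8 genes (Cd55, Cr1l, Cd59a, C1ra and C3). The core letters bound by RBPJ, TGGGAA on either strand, occurred in 2 of the 5 windows, those of C1ra and Cr1l, and in 25.6% of all 32851 windows. The windows of C1ra and Cr1l, which hold these letters, and of Cd59a, which holds another of the matches searched, are printed 5′ to 3′ on the strand of the gene. Capitals mark every match on either strand to TGGGAA, to the AP-1 letters TGANTCA, to the heat shock letters GAANNTTC, to the interferon response letters (GAAA, any 2 bases, GAAA) or to the TATA box letters TATAAA, and no match overlaps another.
C1ra: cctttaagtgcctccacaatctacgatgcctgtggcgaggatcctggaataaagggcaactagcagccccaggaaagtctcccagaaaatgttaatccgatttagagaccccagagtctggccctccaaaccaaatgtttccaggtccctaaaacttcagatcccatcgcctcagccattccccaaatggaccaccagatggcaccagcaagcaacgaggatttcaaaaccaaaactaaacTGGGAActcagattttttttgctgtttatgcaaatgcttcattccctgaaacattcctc
Cr1l: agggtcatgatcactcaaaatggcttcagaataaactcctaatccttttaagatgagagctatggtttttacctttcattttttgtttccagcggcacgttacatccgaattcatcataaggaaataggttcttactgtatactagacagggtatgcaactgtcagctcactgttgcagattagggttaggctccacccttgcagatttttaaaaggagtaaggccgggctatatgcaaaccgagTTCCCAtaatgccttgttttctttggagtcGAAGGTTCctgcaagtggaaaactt
Cd59a: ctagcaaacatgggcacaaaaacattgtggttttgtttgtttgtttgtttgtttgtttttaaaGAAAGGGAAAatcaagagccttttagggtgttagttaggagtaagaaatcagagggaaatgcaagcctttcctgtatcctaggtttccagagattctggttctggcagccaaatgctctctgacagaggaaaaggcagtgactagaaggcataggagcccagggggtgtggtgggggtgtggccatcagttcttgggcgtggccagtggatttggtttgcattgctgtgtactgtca
The C1ra window is chr6:124512371-124512670 on the plus strand, and holds TGGGAA at bases 242 to 247 of the window. The Cr1l window is chr1:195131521-195131820 on the minus strand, with the same letters on the opposite strand at bases 246 to 251 and a heat shock match at bases 276 to 283. The Cd59a window, chr2:104095551-104095850 on the plus strand, holds no TGGGAA and 1 interferon response match, at bases 64 to 73. Over all windows 7.81% held the AP-1 letters, 7.86% the heat shock letters, 3.44% the interferon response letters and 13.6% the TATA box letters. The C3 window held TATAAA and the Cd55 window none of the letters searched. The C + G content was 63.3% in the Cd55 window and 41.3% to 53.3% in the other 4, beside a median of 52.7% over all windows. A match of letters is a description and does not show that a factor binds there.

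Clu, clusterin, showed the clearest separation of the 8 genes. It lies on chromosome 14 of GRCm38 from 65968483 to 65981547, on the plus strand. Its levels were 30.6, 28.4 and 31.0 CPM in CTRL 1 to 3 and 13.5, 15.9 and 14.1 CPM in RbpjΔEC 1 to 3. The lowest CTRL library was thus well above the highest RbpjΔEC library, and the spread within each group was small, 4.68% of the mean in CTRL and 8.78% in RbpjΔEC. The log2 fold change was -1.05 (standard error 0.0981), or 0.484 times the CTRL level, and it stayed between -1.12 and -0.998 when any 1 library was left out. It rests on 3880 counts over the CTRL and 1839 over the RbpjΔEC libraries. Clu is also made by injured and distal tubule cells, which the CD31+ gate is meant to leave out. Of 10 tubule markers, the 5 of the distal segments and collecting duct summed to 398.5, 240.5 and 213.7 CPM in CTRL 1 to 3 and to 104.5, 48.1 and 162.7 CPM in RbpjΔEC 1 to 3, so that their sum, like Clu, was lower in every RbpjΔEC library than in any CTRL library. The 5 proximal markers summed to 34.3, 62.9 and 103.0 CPM in CTRL and to 70.5, 80.9 and 304.2 CPM in RbpjΔEC, with overlapping groups. The part of tubule cells in the level of Clu was not tested, and the split by segment was made after the values were seen.

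Serping1 encodes C1 inhibitor, the serpin that inactivates C1r, C1s and the lectin pathway proteases. It is located on chromosome 2 from 84765387 to 84775444, on the minus strand. CTRL 1 to 3 had 3.27, 3.87 and 3.24 CPM, and RbpjΔEC 1 to 3 had 1.81, 1.69 and 1.45 CPM. All RbpjΔEC values were below all CTRL values, although the gene was thinly covered, with 131 to 183 counts per CTRL library and 58 to 81 per RbpjΔEC library. The log2 fold change was -1.07 (standard error 0.232), a level 0.477 times that of CTRL.
C1ra, which encodes the first protease of the classical pathway and is a target of C1 inhibitor, had 13.04, 11.6 and 10.5 CPM in CTRL and 8.59, 9.87 and 8.14 CPM in RbpjΔEC. It lies on chromosome 6 from 124512405 to 124523443, on the plus strand. The groups did not overlap but came within 1 CPM of each other, between CTRL 3 and RbpjΔEC 2. The log2 fold change of C1ra was -0.40 (standard error 0.135).
C3, the central component that all pathways cleave, had 3.59, 2.01 and 1.42 CPM in CTRL and 1.12, 1.45 and 2.12 CPM in RbpjΔEC. The groups overlapped, with RbpjΔEC 3 above CTRL 2 and CTRL 3. The spread in CTRL was 48.0% of the mean, where counting error alone would give 10.02%. The log2 fold change of C3, -0.58 (standard error 0.372), was -0.14 when CTRL 1 was left out, so that library carries most of it. C3 is located on chromosome 17 from 57203970 to 57228136, on the minus strand.

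Cells other than ECs also express these secreted components, so markers of other kidney cell types were read in the same libraries. Macrophages and B and T cells carry CD45 and would be removed by the gate, which through CD31 is meant to keep ECs. Of 12 mural genes (smooth muscle cells and pericytes), 11 were tested, and their median log2 fold change was -1.08, with 3 called lower by edgeR (7 by DESeq2). Of 10 fibroblast genes, 4 were tested, all with lower means in RbpjΔEC and a median of -1.37. Of these, 2 were called lower by edgeR (3 by DESeq2), with Pi16 among them in both. Of 8 macrophage genes, 6 were tested with a median of -1.22, and 1 was called lower by edgeR (2 by DESeq2), and this median was -0.52 without CTRL 1. Beside these counts, edgeR called 0.559% of all tested genes lower and DESeq2 2.77%. The mural sum was 248.6 to 294.3 CPM in CTRL and 188.8 to 224.5 CPM in RbpjΔEC, and without Mylk, which at 173.1 CPM in CTRL held most of it, 87.5 to 114.6 and 36.0 to 57.7 CPM. The fibroblast sum was 138.6 to 169.7 and 70.0 to 96.2 CPM, nearly all of it from Pi16 with 149.3 CPM in CTRL. Which cells the Pi16 RNA came from was not tested. The other 9 genes held only 4.82 to 7.33 and 1.61 to 2.94 CPM, with Dpt at 0 in every library. Pdgfra, the next fibroblast marker in level, had 3.46 CPM in CTRL and 1.09 CPM in RbpjΔEC, and Myh11 of smooth muscle 29.7 and 14.003 CPM.
Macrophage markers summed to 14.7 to 28.6 CPM in CTRL, highest in CTRL 1, and to 11.1 to 15.3 CPM in RbpjΔEC, with Cd14 at 8.89 and 7.90 CPM and Mrc1 at 6.03 and 2.05 CPM on average. CTRL 1 was also the library with the most C3. In RbpjΔEC 1 to 3 the median of the fibroblast list relative to the CTRL mean was -2.02, -1.55 and -0.81, and that of the mural list -1.11, -1.35 and -0.68, both nearest to CTRL in RbpjΔEC 3. On the same scale C3 had -0.93, -0.57 and -0.04, also nearest to CTRL in RbpjΔEC 3. Serping1 had -0.91, -1.01 and -1.23 and C1ra -0.44, -0.24 and -0.52, both furthest from CTRL in that library. The part of these cells in the levels of Serping1, C1ra and C3 was not tested. Of the remaining lists, the 5 podocyte genes had a median log2 fold change of -0.82, which was -1.96 without RbpjΔEC 3, -0.40 without RbpjΔEC 2 and -0.42 without CTRL 3. The 10 tubule genes had a median of -0.11 (-0.64 without RbpjΔEC 3 and 0.16 without RbpjΔEC 2), which pools 5 proximal genes with log2 fold changes of 0.98 to 1.28 and 5 distal genes with -2.77 to -1.19. In these lists edgeR called 0 genes, where 0 podocyte and 3 tubule genes were below CTRL with an unadjusted p under 0.05, while DESeq2 called 0 podocyte genes and 1 tubule gene (Aqp2, lower). Over all tested genes, 8.62% were lower at that unadjusted p and 2.77% were called lower by DESeq2. Synpo of podocytes had 183.5 and 192.9 CPM, the distal markers Slc12a3 103.5 and 29.9 CPM and Slc12a1 90.1 and 37.9 CPM, and the proximal marker Lrp2, named after its values were seen, 25.8 and 62.5 CPM in CTRL and RbpjΔEC. Of the 7 B and T cell genes, 1 was tested (Cd79a, 0.283 and 0.311 CPM), and Cd3d and Cd3e were at 0 in every library.

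**Figure D2:**
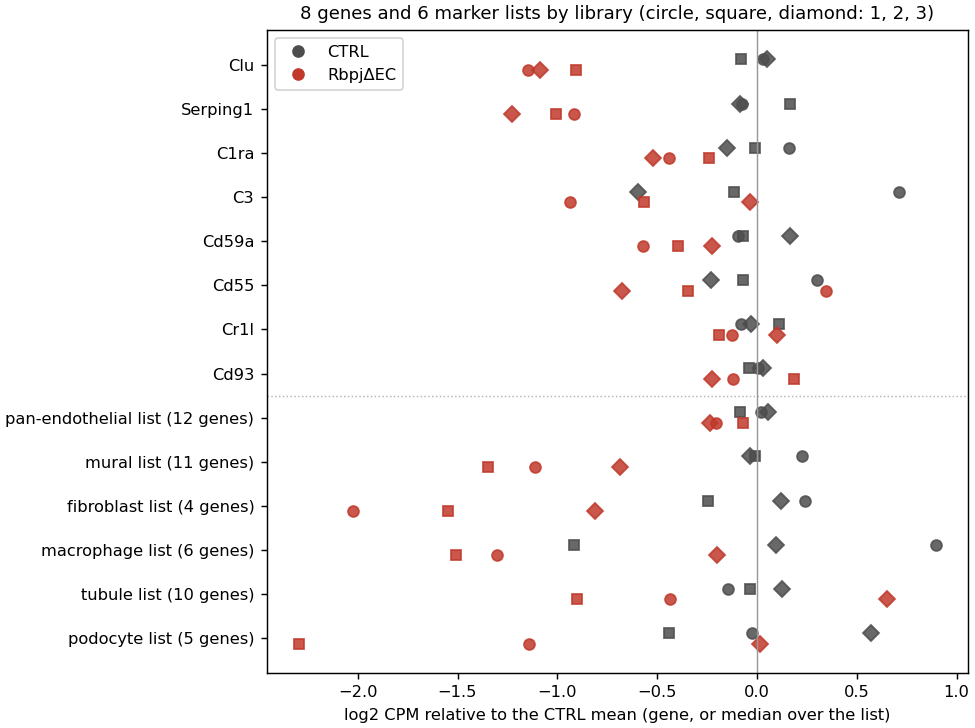
Log2 CPM of each of the 8 genes, and the median over the tested genes of 6 marker lists, in the 6 libraries relative to the CTRL mean (CTRL grey, RbpjΔEC red). Clu and Serping1 lie near -1 in all 3 RbpjΔEC libraries. The mural median (-1.11, -1.35 and -0.68) and the fibroblast median (-2.02, -1.55 and -0.81) are also below the CTRL mean in RbpjΔEC 1 to 3. The medians of the macrophage, tubule and podocyte lists differ from one RbpjΔEC library to another, and the tubule median pools proximal and distal genes.

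Of the membrane-bound brakes, Cd59a separated the groups and the others did not. Cd59a, the GPI-anchored inhibitor of the membrane attack complex, had 24.97, 25.4 and 30.0 CPM in CTRL and 17.98, 20.3 and 22.8 CPM in RbpjΔEC. The gap between the lowest CTRL and the highest RbpjΔEC library was narrower than the SD within either group. Its log2 fold change was -0.40 (standard error 0.113). The gene lies on chromosome 2 from 104095801 to 104115354, on the plus strand.
Cr1l encodes Crry, the rodent membrane protein that acts on the C3 convertases through C3b and C4b, and lies on chromosome 1 from 195097382 to 195131586, on the minus strand. It had 90.0, 102.7 and 93.1 CPM in CTRL and 87.3, 83.3 and 102.1 CPM in RbpjΔEC. The groups overlapped, and its log2 fold change of -0.07 (standard error 0.0880) was smaller than its error.
Cd55, decay-accelerating factor, on chromosome 1 from 130439027 to 130462744 on the minus strand, had 4.61, 3.55 and 3.17 CPM in CTRL and 4.75, 2.93 and 2.32 CPM in RbpjΔEC. The highest and the lowest of its 6 values both came from RbpjΔEC. The log2 fold change of -0.18 (standard error 0.277) turned to 0.03 without RbpjΔEC 3 and went to -0.52 without RbpjΔEC 1.
Cd93, a C-type lectin-like transmembrane protein of ECs that supports cell adhesion, on chromosome 2 from 148436640 to 148443563 on the minus strand, had 938.2, 910.2 and 955.1 CPM in CTRL and 859.0, 1061 and 799.1 CPM in RbpjΔEC. The CTRL values lay inside the range of the RbpjΔEC values. The spread was 2.42% of the mean in CTRL and 15.2% in RbpjΔEC, where counting error alone would give 0.498% and 0.511%. The log2 fold change of -0.04 (standard error 0.0985) turned to 0.04 without RbpjΔEC 3. Cd93 made up 84.4% of the summed CPM of the 8 genes in CTRL, so that the sum, 1108 ± 19.9 CPM in CTRL and 1048 ± 131 CPM in RbpjΔEC (SD, n = 3 each), mainly follows that gene.

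**Figure D3:**
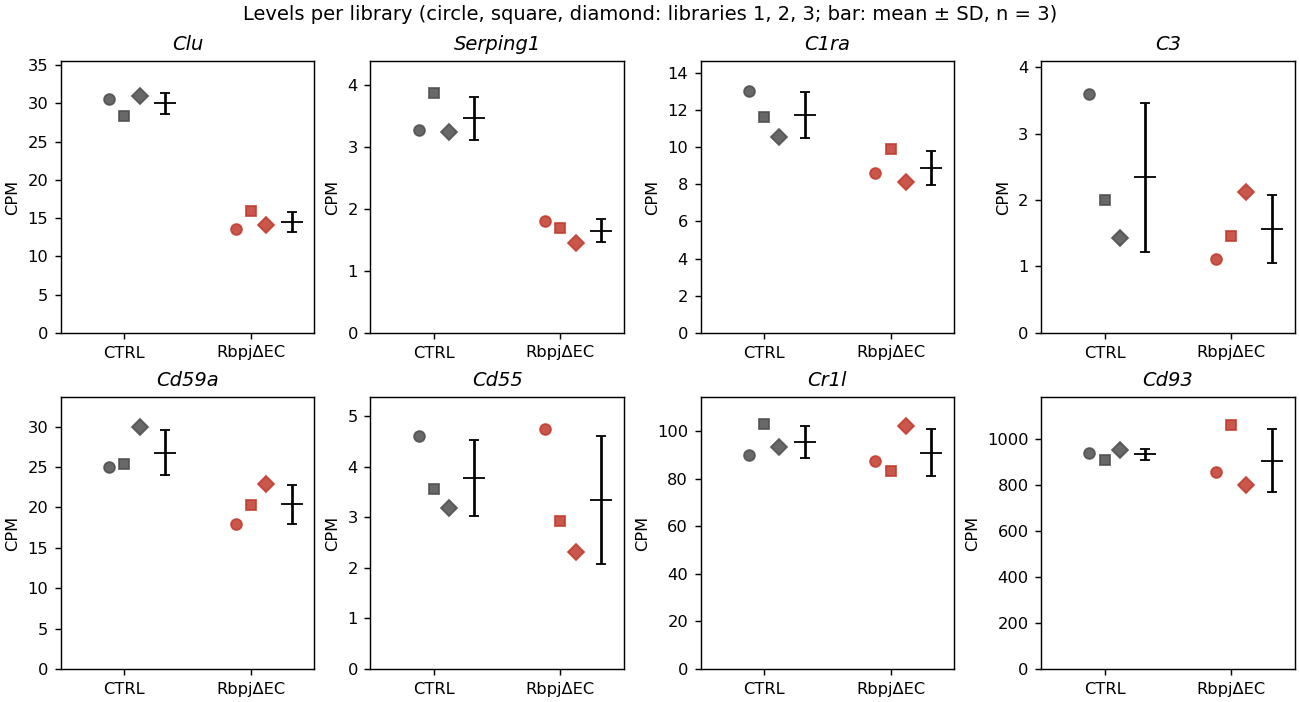
CPM of the 8 genes in each of the 3 CTRL (grey) and 3 RbpjΔEC (red) libraries, each panel with its own axis from 0 and with the mean ± SD beside the points. The groups do not overlap for Clu, Serping1, C1ra and Cd59a, while C3, Cd55, Cr1l and Cd93 overlap.

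Several of the 8 genes have close copies in the mouse genome that could share reads. The longest coding transcripts of C1ra and C1rb were identical at 98.0% of 2428 aligned bases, and 48.0% of all 50-base windows of C1ra also occurred in C1rb. For Cd55 and Cd55b these values were 93.6% and 13.3%, and for Cd59a and Cd59b 89.9% and 3.98%. Few counts were listed for any of the copies. C1rb had between 0 and 3 counts per library, Cd55b 0 counts in all 6, which allows up to the floor of 3 counts per library, and Cd59b 5 to 13 counts. How reads that match both copies were counted is not given in the sources used here, so the level of C1ra in particular is uncertain. An antisense gene overlaps Cd55 but had only 6 counts over the 3 CTRL and 12 over the 3 RbpjΔEC libraries. Of the latter, 10 came from RbpjΔEC 1. The library kit was stranded, and the strand setting used for counting is not given in the sources used here.

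Complement genes outside the 8 were listed by role, 50 in all. Only 15 of them passed the low-count filter, 35 did not, and 3 of those (Cd55b, Cfhr3 and Vsig4) had no count in any library. Of the 15, 0 were called in either direction by edgeR's quasi-likelihood test, where an unadjusted p under 0.05 was reached by 2 with higher and 2 with lower levels, while DESeq2's Wald test called 0 higher and 1 lower (C1s1), beside 8.88% and 8.62% of all tested genes at that unadjusted p and 2.77% called lower by DESeq2. By mean, 8 were higher and 7 lower in RbpjΔEC. Their median log2 fold change of 0.31, beside 0.01 over all tested genes, turned to -0.27, -0.21, -0.13 and -0.06 without RbpjΔEC 1, CTRL 2, RbpjΔEC 3 and RbpjΔEC 2 in turn, when 19091 to 19163 genes passed the filter in place of 18438.
In the classical pathway, 4 of 9 genes were tested. C1s1, which encodes the protease that C1r activates and lies 6902 bp from C1ra on the other strand, had 70, 58 and 67 counts in CTRL and 32, 6 and 28 counts in RbpjΔEC. Every RbpjΔEC library was below every CTRL library, most of all RbpjΔEC 2. The difference of -1.54 on the log2 scale (standard error 0.487) had an adjusted p of 0.136 in edgeR and of 0.0491 in DESeq2. C2, which supplies the protease of the classical C3 convertase, had 0.831 ± 0.104 CPM in CTRL and 1.11 ± 0.397 CPM in RbpjΔEC (SD, n = 3), within the spread of the libraries (edgeR, adjusted p = 0.582). C4a, named after its values were seen, had 32, 50 and 22 counts in CTRL and 89, 44 and 72 counts in RbpjΔEC, with overlapping groups. Its difference of 1.02 on the log2 scale (standard error 0.375) was the largest upward one of the 15 genes and had an unadjusted p of 0.0189 and an adjusted p of 0.188 in edgeR. Its paralog C4b had 1 to 11 counts per library, and whether the 2 genes share reads was not tested. In the lectin pathway 2 of 8 genes were tested, and Masp1, one of its proteases, had 1.85 ± 0.723 and 1.51 ± 0.547 CPM (SD, n = 3 each).
In the alternative pathway 2 of 3 genes were tested. Cfb, factor B, had 4.44 ± 0.446 CPM in CTRL and 3.86 ± 0.420 CPM in RbpjΔEC (SD, n = 3), with an adjusted p of 0.626 from edgeR. Cfp, properdin, which stabilises the alternative convertase, had 2.19, 3.38 and 2.39 CPM in CTRL and 3.46, 4.65 and 3.89 CPM in RbpjΔEC, with every RbpjΔEC library above every CTRL library and a log2 fold change of 0.59 (standard error 0.237, edgeR adjusted p = 0.229). Of the 7 terminal components, 1 was tested.
Among fluid-phase regulators, 3 of 10 were tested. Susd4, listed with them, encodes a membrane protein with complement control modules and had 4.83 ± 1.07 and 6.22 ± 1.15 CPM (SD, n = 3, edgeR adjusted p = 0.403). Of 4 other membrane regulators, 1 was tested. Cd46, 5133 bp from Cr1l in the gene cluster of convertase regulators on chromosome 1, had 7.55 ± 0.730 CPM in CTRL and 9.66 ± 2.01 CPM in RbpjΔEC (SD, n = 3), a log2 fold change of 0.35 (edgeR, adjusted p = 0.305).
Of 9 receptor genes 2 were tested. C1qbp, which encodes a mostly mitochondrial protein that binds C1q, had 20.0 ± 1.18 and 18.0 ± 0.382 CPM (SD, n = 3, edgeR adjusted p = 0.415). Itgb2, the leukocyte integrin subunit of complement receptor type CR3, had 276 counts in CTRL 1 and 54 to 107 in the other 5 libraries, and its log2 fold change of -1.06 (edgeR, adjusted p = 0.291) was -0.34 without CTRL 1. Cr2, a B cell receptor for C3 fragments, had 67 counts in CTRL 1 and 2 to 12 elsewhere and did not pass the filter.

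**Figure D4:**
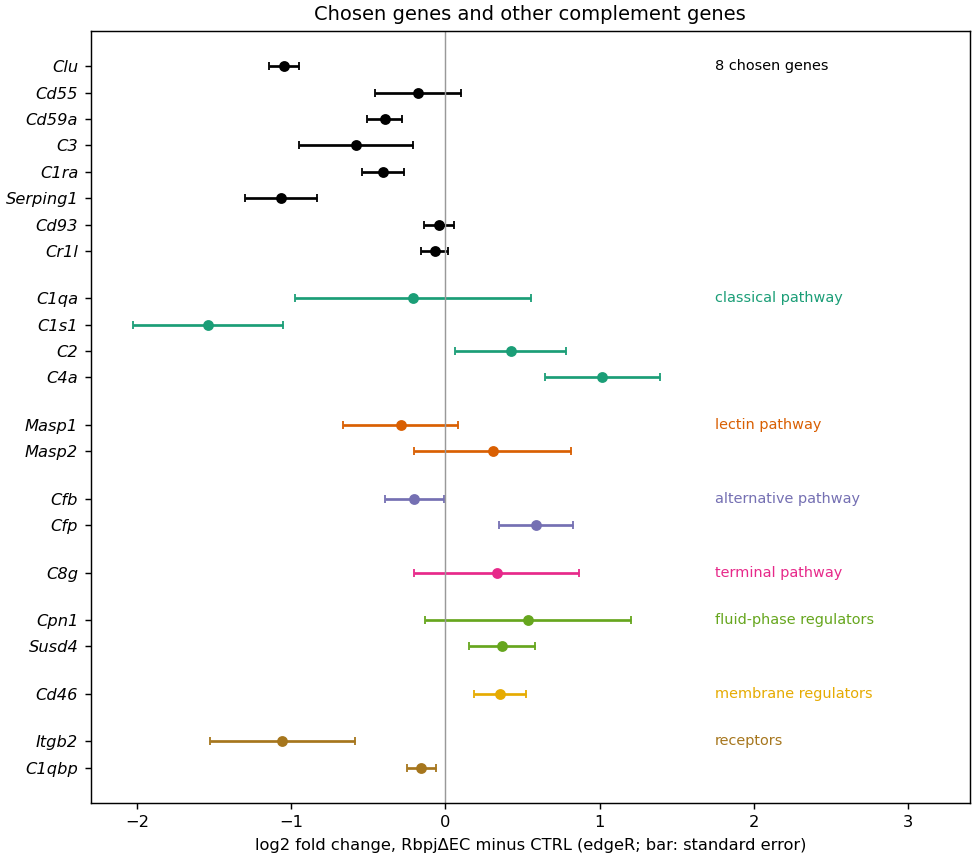
Log2 fold change between RbpjΔEC and CTRL from edgeR, with its standard error, for the 8 genes (black) and for other tested complement genes by role (colours). Clu and Serping1 lie near -1, as does Itgb2 (-1.06), while C1s1 lies lower (-1.54). All 8 genes lie below 0. The other complement genes fall on both sides of 0, with C4a highest at 1.02.

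Cd93 belongs to a small family of membrane lectins, and its relatives, named after their values were seen, all had lower means in RbpjΔEC; the differences from Cd93 were not tested. Thbd, thrombomodulin, had 580.0 ± 52.0 CPM in CTRL and 483.2 ± 26.7 CPM in RbpjΔEC (SD, n = 3), a log2 fold change of -0.26. Clec14a had a log2 fold change of -0.24 and Cd248, a pericyte and fibroblast protein, one of -0.86. None of the 3 was called by edgeR (adjusted p between 0.126 and 0.232), while all 3 had an unadjusted p under 0.05 and DESeq2 called 1 (Cd248, lower), where 8.62% and 2.77% of all tested genes were lower by these rules.

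Genes in the neighbourhood of the 8 were read to see whether the differences extended along the chromosome. Within 100 kb lay 68 other listed genes, of which 36 were tested, with a median log2 fold change of 0.06. Of these, 0 were called in either direction by edgeR, where an unadjusted p under 0.05 was reached by 4 with higher and 3 with lower levels, and DESeq2's Wald test called 1 higher and 1 lower. These counts lie near the shares of all tested genes, 8.88% and 8.62% at that unadjusted p, and 2.35% and 2.77% called by DESeq2. The one tested neighbour of Clu, Scara3 (named, like Aqp2, after the values were seen), had 0.825 CPM in CTRL and 0.380 CPM in RbpjΔEC, with overlapping libraries and a log2 fold change of -1.12 (edgeR, adjusted p = 0.387). The 3 tested neighbours of C1ra, C1s1 among them, had a median of -0.95, the 12 of Serping1 one of -0.14 and the 5 of Cd59a one of 0.31. The median near C1ra is the value of C1rl, with only 34 counts over the CTRL and 17 over the RbpjΔEC libraries and overlapping groups. Pex5, also near C1ra, had a log2 fold change of 0.13 with 938 to 1141 counts per library. C1rl and Pex5 were named after their values were seen.

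For the genes with a mean of at least 5 CPM, profiles over the 6 libraries were compared with those of 10441 other genes by the root mean square difference of log2 CPM after centring each gene on its own mean. Closest to Clu were Col18a1 (0.135), a basement membrane collagen, and Tgfb2 (0.150), a TGF-beta ligand, where the median over all genes was 0.533. Col18a1 had 147.5 CPM in CTRL and 76.4 CPM in RbpjΔEC, and Tgfb2 77.1 and 38.6 CPM. Closest to Cd59a were Olfml2a (0.0359) and Ston1 (0.0578), and to C1ra Tmem50b (0.0515) and Slc2a10 (0.0536). Cd93 was closest to Med22 (0.0265) and Hmgn1 (0.0314), and Cr1l to Gnpnat1 (0.0179) and Esco1 (0.0218), all of which, like these genes, differed little between the groups. The distances use the same 6 libraries as the comparison and say how alike the profiles are, nothing about shared control.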

How the data were processed

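The authors prepared libraries from 2 ng of total RNA of sorted kidney ECs with a stranded total RNA kit and ran the nf-core/rnaseq pipeline. Per the labels, tools included Trim Galore 0.6.4, STAR 2.6.1d and featureCounts (Subread 1.6.4), on GRCm38.p6 with GENCODE M25. The deposited values are raw counts per gene, without normalization. Rows were taken by gene name, and columns were matched to samples by the library number in the labels.
In R 4.3.3, edgeR 4.0.16 gave CPM, log2 fold changes and standard errors (TMM, filterByExpr, estimateDisp, glmQLFit and glmQLFTest with robust estimation), with Benjamini-Hochberg adjustment over the 18438 tested genes and a threshold of 0.05. Log2 CPM used a prior count of 2. DESeq2 1.42.0 was an alternative, as were other scalings and filters, a replicate block and leaving out each library. Coordinates and exonic lengths came from GENCODE M21 on GRCm38, whose gene models can differ from the counting release. The fit was tested on simulated data with 200 genes changed, where it recovered 151 (75.5%) and also called 14 unchanged genes.
The members and the gene lists were chosen with earlier results of these data known. Named genes were the 8 genes, Rbpj, complement genes that were called or among the 10 highest in CTRL, copies and cluster partners of the 8, the closest profiles, and the 2 highest genes of each marker list with Pecam1 and Cdh5; others are marked as named after their values were seen. No 2 libraries of the same group agreed within counting noise (mean chi-square per gene between replicates 17.8 to 36.4). Total counts of 39649171 to 47726850 per library set the counting precision, and intervals of counting error do not cover differences between mice. Series labels give no batch. The values of 1 complement gene and 1 podocyte marker are not reported here, although both stay in the counts of their lists.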

Additional observations from a re-analysis of the deposited data

How the results depend on the processing

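The 96 log2 fold changes of the 8 genes under the 12 alternatives all moved by less than 1 SD of the libraries, and Clu was called in each, from which, since it was chosen on this comparison, nothing is read. DESeq2's Wald test and the fit with no low-count filter each called 3 of the 8 genes lower (Clu, Cd59a and Serping1) in place of 1, where 2.77% of all 18438 genes and 1.88% of all 38324 genes in these fits were called lower. Over all genes, 106 were called higher and 103 lower, which became 434 and 510 with DESeq2, 717 and 719 with no low-count filter, and 7 to 401 and 13 to 333 without 1 library in turn. In total the calls numbered 54 without CTRL 1, 700 without CTRL 2, 24 without CTRL 3, 21 without RbpjΔEC 1, 48 without RbpjΔEC 2 and 521 without RbpjΔEC 3. Of the complement genes outside the 8, 1 was called lower with DESeq2 (C1s1), 4 with no filter (among them C1s1, Cr2 and Itgb2), and 0 to 1 without 1 library (Cr2 without CTRL 2). Their median of 0.31 was -0.44 with no filter and -0.27 to 0.39 without 1 library, where 19021 to 19163 genes passed the filter. Of the neighbouring genes, 1 was called higher with DESeq2, library size alone, no filter or the replicate block, and 0 to 1 without 1 library (Btbd18 near Serping1, named after its values were seen), and 1 lower with DESeq2 and 2 with no filter (C1s1 and Thbd). Without 1 library in turn, Masp1 ranged from -0.53 to 0.036 (without CTRL 1) and Rbpj from -0.089 to 0.0013 (without RbpjΔEC 2). Scaling by library size alone, 159 genes were called higher and 82 lower, and the median over all genes was 0.05.
Replicate numbers 1 to 3 are shared by the groups, but equal numbers did not deviate together (correlations of 0.0231, 0.00916 and 0.00544 over 18438 genes). With the replicate block, 166 genes were called higher and 178 lower, and the call of Clu was kept. The cause of these differences was not tested. C3, Cd55 and Serping1 rest on at most 213 counts per library, and their differences are the least precise.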
